A study of Mus musculus with 37 samples.

Results

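The 43 genes described here encode integrin alpha and beta chains, proteins of the focal adhesion, and the adhesion receptors Cd44, Selplg and Icam1. They were taken by gene name from a list drawn up with earlier results of these data known, and all 43 were found among the 35290 genes of the count files. RNA was sequenced from mouse pre-B cells, derived from bone marrow of adult C57BL/6 mice that lack Arf and transformed with BCR-ABL1, so every group shares the Arf-/- genotype and the BCR-ABL1 oncogene. A further vector made 2 kinds of cell: IK6 cells, which received MIG-IK6 and so the short Ikaros isoform that blocks the normal protein, and MIG cells, which received the same GFP vector without an insert. Each kind was treated at 1 µM with ATRA, which is all-trans retinoic acid, with bexarotene, with carbacyclin or with NOE, which is N-oleoylethanolamine, or with the solvent DMSO. Each group has 4 libraries, except for 3 each of IK6 bexarotene, IK6 carbacyclin and MIG bexarotene, 37 in all.

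The cells were kept in serum-containing medium without cytokines or, as far as the labels say, stromal cells. The duration of treatment is not given, nor do the labels say whether the cells are 1 clone or whether replicates were cultured apart; every p-value here therefore reflects variation among the libraries, which may be technical. Total counts ran from 16.5 to 80.4 M per library with a median of 35.1 M. Ikzf1, the gene of Ikaros, stood at 350 to 537 CPM (counts-per-million) in the 18 IK6 libraries and at 204 to 364 CPM in the 19 MIG libraries. All 12 pre-B cell markers, such as Cd79a and Igll1, averaged at least 1 CPM in every group. Of 12 myeloid markers, 1 to 4 averaged at least 1 CPM in a group: Cd68 averaged 4.06 to 5.68 CPM in every group and Lyz2 from 0.451 CPM in MIG ATRA to 13.3 CPM in IK6 NOE, while S100a8 and S100a9 of granulocytes were at 0 in every group. Ribosomal protein genes took 15.1% of counts in replicate 3 of MIG DMSO and in replicate 4 of MIG carbacyclin and 12.2% in replicate 3 of MIG bexarotene, against 7.135% to 11.29% in the other libraries.

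Integrins are heterodimers of an alpha and a beta chain that bind matrix proteins and cell surface ligands. Talin and kindlin bind the tail of the beta chain and switch the receptor to its active form, and vinculin, paxillin, parvins and the kinases Fak (Ptk2) and Pyk2 (Ptk2b) join the activated receptor to actin and to signalling. On precursor B cells, integrins that contain Itga4 or Itga5 hold the cells to stromal Vcam1 and fibronectin in the bone marrow, and those that contain Itgal with Itgb2 bind Icam1. Ikaros, a zinc finger transcription factor, both represses and activates genes in lymphoid precursors, and its alteration is frequent in BCR-ABL1 leukaemia.

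Of the 43 genes, 33 had enough counts to be tested: 13 alpha chains, 6 beta chains, 11 adaptors and kinases, and the 3 adhesion receptors. The 10 others are Itga2, Itga7, Itga8, Itga11, Itgax, Itgb6, Itgb8, Fermt2, Ilk and Parva, none of which averaged above 0.277 CPM in any group. Itga8, an alpha chain that pairs with Itgb1, had 88 counts over the 18 IK6 libraries, with a count in each of them, and 4 counts over the 19 MIG libraries, found in 2 of these. That gave a ratio of 22.1 per total count, with an exact binomial 95% interval of 8.31 to 82.7 that covers counting error only. Of the 88 counts, 50 were in the 4 IK6 ATRA libraries and 11 in the 4 IK6 DMSO libraries. The ratio therefore pools treatments and leans on ATRA. The kindlin of non-blood cells, Fermt2, had 3 counts over the IK6 libraries and 2 over the MIG libraries. Ilk, whose kinase-like product usually forms a complex with Lims1 and a parvin, had 23 and 15 counts in IK6 and MIG libraries. In GENCODE M21, 89.7% of its exon bases also lie in exons of Taf10 or Rrp8 on the other strand, so its level is uncertain in these counts, for which the use of strand is not given.

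Per kilobase of exon, Itgb1 was the most abundant beta chain in all 10 groups. Under DMSO it stood at 89.3 ± 0.861 CPM per kb in IK6 cells and 70.7 ± 2.88 CPM per kb in MIG cells (SD, n = 4 each). Itgb2, the beta chain of leukocyte integrins, followed at 28.4 ± 1.02 CPM per kb in IK6 cells and 27.5 ± 0.858 CPM per kb in MIG cells, and Itgb3 came next at 6.02 ± 0.293 and 3.88 ± 0.132 CPM per kb in IK6 and MIG cells. The alpha chains Itgal, Itga6 and Itga4 stood far above the others. In IK6 cells under DMSO Itgal led with 31.8 ± 1.53 CPM per kb, ahead of Itga6 at 21.2 ± 1.67 and Itga4 at 20.9 ± 0.107 CPM per kb, which did not differ beyond their spread. MIG cells under DMSO had Itga6 first with 29.8 ± 1.17 CPM per kb, ahead of Itga4 at 21.7 ± 2.87 and Itgal at 21 ± 0.926 CPM per kb, again within their spread of each other. Itgav followed in both, and next came Itga5 in IK6 cells with 4.21 ± 0.0577 CPM per kb and Itga9 in MIG cells with 1.08 ± 0.0706 CPM per kb. The order of Itgal, Itga6 and Itga4 turns on the length used, the union of all annotated exons of a gene. It is 13.98 kb for Itga4 and 6.569 kb for Itgal. In CPM alone Itga4 was the highest alpha chain under DMSO, with means of 292 CPM in IK6 and 304 CPM in MIG cells.

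**Figure D1:**
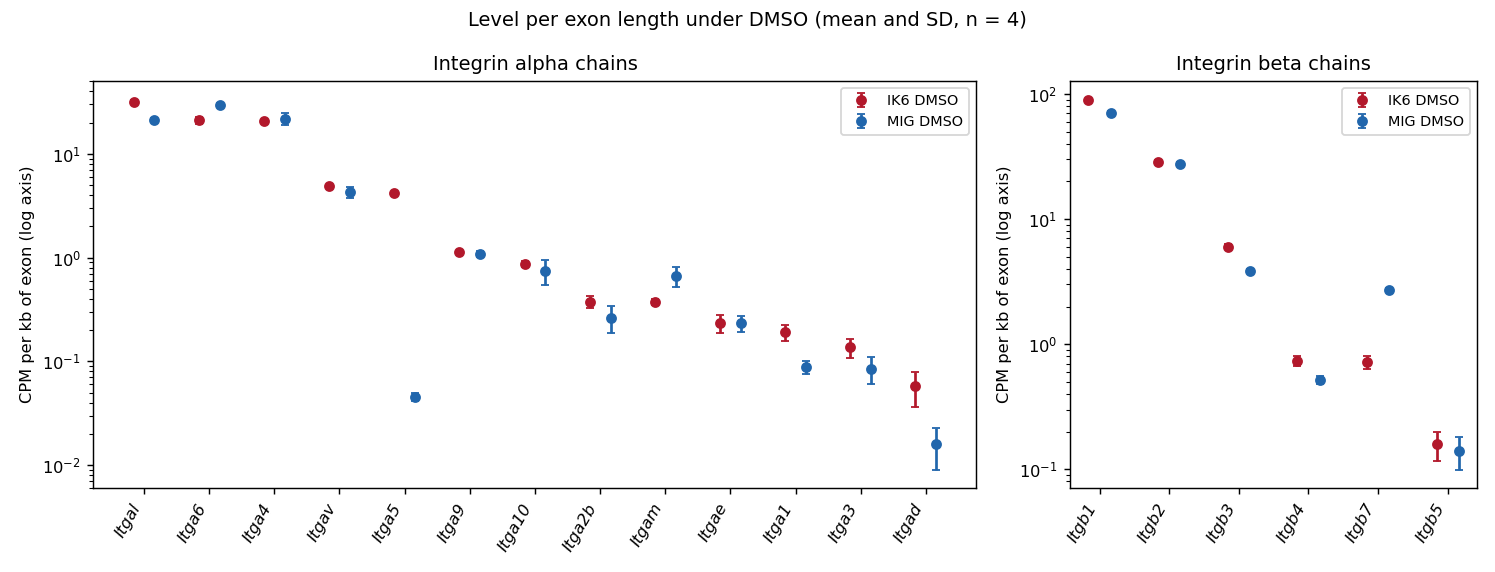
Levels of the tested integrin alpha chains (left) and beta chains (right) in IK6 and MIG cells under DMSO, in CPM per kb of exon on a log axis, with points for means and bars for the SD of 4 libraries, genes ordered by the IK6 level. Itgb1 led the beta chains at 89.3 CPM per kb in IK6 and 70.7 in MIG cells, and Itga5 showed the widest gap between the vectors.

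IK6 cells had far more Itga5 than MIG cells and, at smaller differences, more Itgal, Itgb1, Ptk2, Tln2 and Cd44, and they had less Itgam, Itga6 and Icam1, under all 5 treatments. Itgb7 was lower under all but carbacyclin. The comparison asks which adhesion genes differ with the IK6 isoform, and it was made under each treatment with separate libraries. A member is called changed where edgeR's quasi-likelihood test over all 15699 tested genes gave a Benjamini-Hochberg adjusted p below 0.05, and the share of all tested genes called is given beside each count. Under DMSO 15 of 33 tested members were higher and 6 lower in IK6 cells, beside 13.3% and 12.7% of all tested genes. Under ATRA 12 were higher and 10 lower, beside 20.9% and 20%. Under bexarotene 12 were higher and 6 lower, beside 11.1% and 9.95%. Counts under carbacyclin were 12 higher and 10 lower, beside 17.3% and 14.8%, and under NOE 14 higher and 5 lower, beside 18.9% and 13.7%. The median log2 difference of the tested members was 0.22 under DMSO, where that of all tested genes was -0.0074, and -0.08 under ATRA, where that of all genes was 0.0073. Members passed the filter on low counts partly through the group where they are high, so these counts describe the tested members only.

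The 9 members higher in IK6 cells under every treatment, a pattern held by 5.15% of all tested genes, were Itga3, Itga5, Itgal, Itgb1, Itgb4, Tln2, Pxn, Ptk2 and Cd44. Itga6, Itgam and Icam1 were lower under every treatment, a pattern held by 3.99% of all tested genes. All calls of 7 of these 12 genes held under each alternative processing and with any 1 library left out: Itga5, Itgb1, Tln2, Ptk2, Cd44, Itgam and Icam1. Of the others, Itga3 lost its call under DMSO without replicate 3 or 4 of MIG or replicate 1 or 3 of IK6, with adjusted p up to 0.0869. Itgb4 lost it under ATRA without replicate 1, 2 or 3 of MIG or 2, 3 or 4 of IK6, with edgeR adjusted p up to 0.11, and Pxn under ATRA without replicate 2 of MIG, with adjusted p = 0.0672. Itgal lost it under carbacyclin without replicate 2 of IK6 and under NOE without replicate 1, 2 or 3 of MIG or replicate 1 or 2 of IK6, and Itga6 under NOE without replicate 4 of MIG or of IK6.

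**Figure D2:**
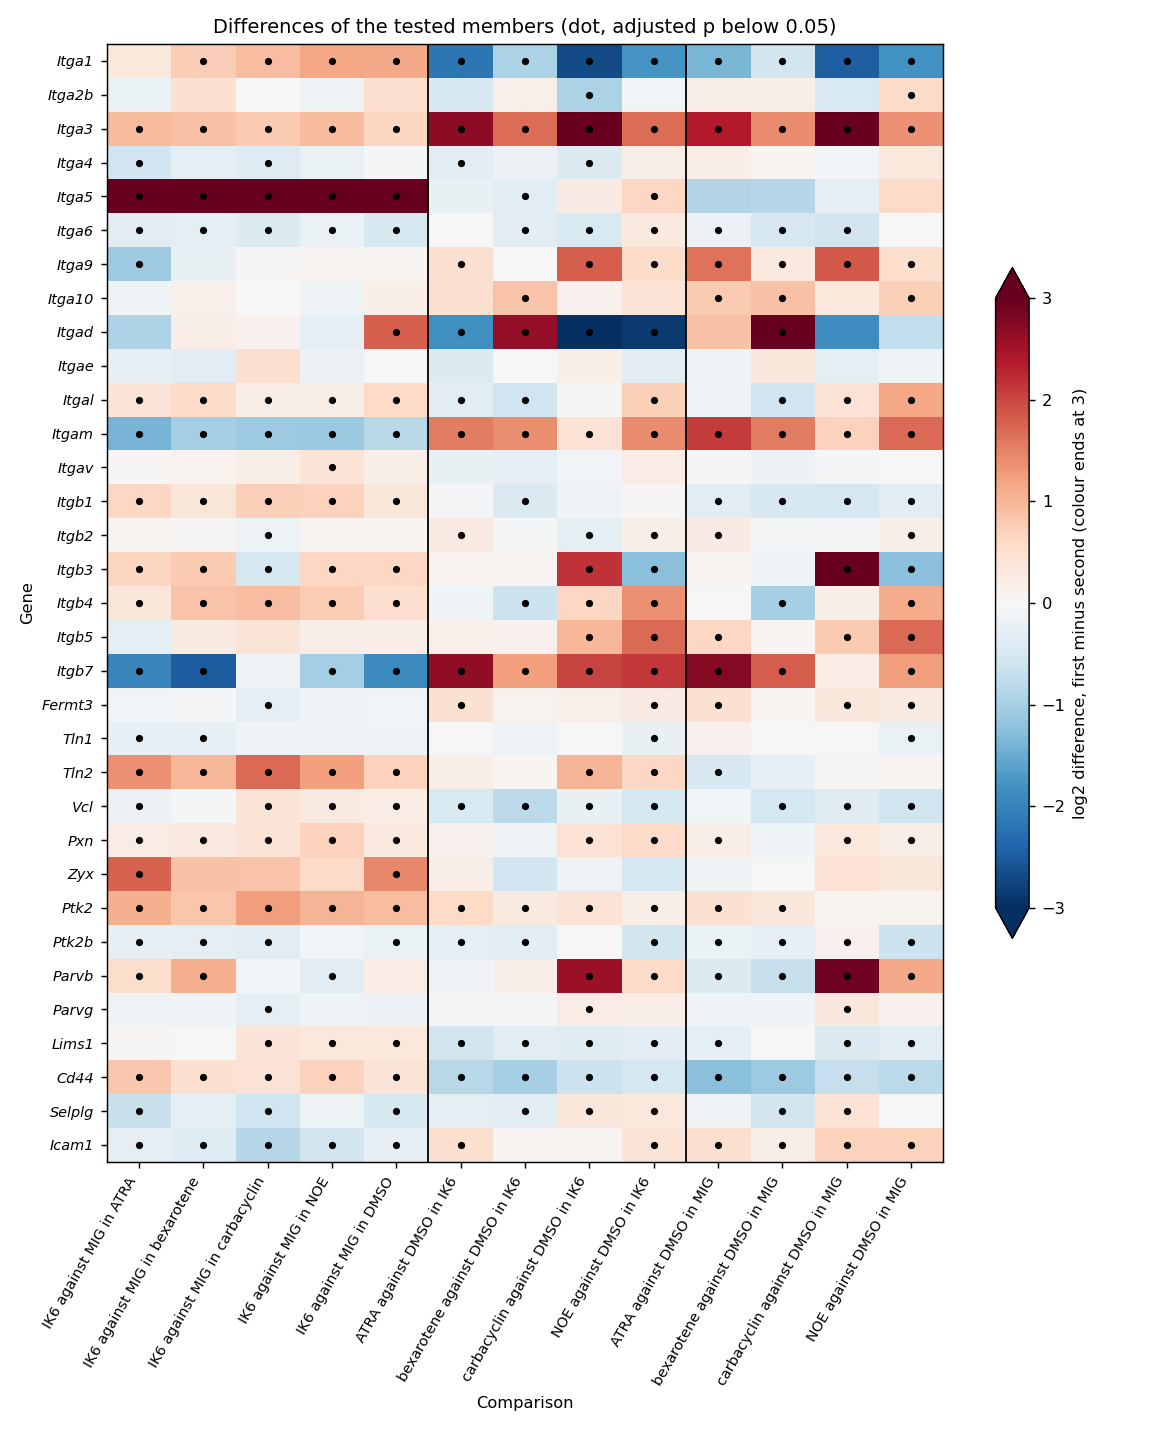
Log2 differences of the 33 tested members in the 5 comparisons of IK6 against MIG and the 8 comparisons of a compound against DMSO, red for higher and blue for lower in the first-named group, with a dot where the edgeR adjusted p is below 0.05 and colours that end at 3. Itga5 is at the red end in the 5 vector columns, the rows of Itga3 and Itgam are red and those of Itga1 and Cd44 blue under every compound.

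Itga5 (ENSMUSG00000000555), the alpha chain of the classical fibronectin receptor, was close to absent from the MIG libraries and present in every IK6 library. Under DMSO it had 21.2, 20.7, 20.6 and 20.6 CPM in IK6 libraries, against 0.193, 0.233, 0.235 and 0.237 CPM in MIG libraries. Over all treatments IK6 libraries ranged from 15.7 CPM under bexarotene to 32.8 CPM under NOE, and no MIG library exceeded 0.408 CPM. The 2 ranges were thus far apart and did not overlap under any treatment. The log2 difference was 6.51 ± 0.165 (SE) under DMSO, 7.16 ± 0.188 under ATRA, 7.02 ± 0.207 under bexarotene, 7.03 ± 0.169 under carbacyclin and 6.55 ± 0.15 under NOE, with edgeR adjusted p of at most 1.01e-22. Single libraries move this value: it was 7.85 under ATRA without MIG replicate 2 and 8.31 under bexarotene without MIG replicate 2. In IK6 cells the level was 1.53-fold higher under NOE than under DMSO (edgeR adjusted p = 4.16e-06), and 1.28-fold lower under bexarotene (adjusted p = 0.00976), a call that ended at adjusted p = 0.0517 without replicate 1 of IK6 bexarotene.

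Itgb7 (ENSMUSG00000001281), the beta chain that pairs with Itga4 in the gut-homing receptor of lymphocytes and with Itgae, was lower in IK6 cells under 4 of the 5 treatments. Under DMSO it had 2.29, 1.77, 2.12 and 1.85 CPM in IK6 libraries, against 7.16, 7.33, 7.76 and 7.82 CPM in MIG libraries, a log2 difference of -1.90 ± 0.125 (edgeR adjusted p = 4.4e-14). The ATRA libraries held 12.3, 11.7, 14.5 and 12.5 CPM in IK6 cells, against 56.6, 45.3, 48.5 and 51.8 CPM in MIG cells, a log2 difference of -1.99 ± 0.105. Under carbacyclin the libraries overlapped, with 8.23, 9.18 and 6.94 CPM in IK6 cells and 8.01, 8.51, 7.71 and 10.8 CPM in MIG cells. The log2 difference there was -0.10, which did not pass the test. Its usual partner Itga4 was called lower in IK6 cells under ATRA, by -0.58 ± 0.133, and under carbacyclin, by -0.38 ± 0.144. The carbacyclin call was lost without any 1 of 5 libraries, which are replicates 1, 2 and 3 of MIG and 1 and 2 of IK6, with adjusted p up to 0.275. Itgae, its other partner, averaged 1.08 CPM in IK6 and 1.07 CPM in MIG cells under DMSO and was not called in any of the 5 vector comparisons.

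Itga5 and Itgb7 had the largest vector differences under DMSO in each direction, and the 250 bases before their RefSeq transcription start in GRCm38.p6 are given because Ikaros binds DNA at a GGGAA core. The bases just after that RefSeq start were found in a GENCODE M21 transcript of Itgb7 and in none of Itga5, so the Itga5 start differs between the annotations. Capitals mark that core on the strand shown. Itga5 lies on chr15:103366792-103367041 and Itgb7 on chr15:102231936-102232185, both on the minus strand.
Itga5: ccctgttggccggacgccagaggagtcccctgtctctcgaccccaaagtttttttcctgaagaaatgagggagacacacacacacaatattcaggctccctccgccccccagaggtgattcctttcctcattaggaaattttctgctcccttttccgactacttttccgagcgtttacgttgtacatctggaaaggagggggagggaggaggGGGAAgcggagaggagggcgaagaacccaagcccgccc
Itgb7: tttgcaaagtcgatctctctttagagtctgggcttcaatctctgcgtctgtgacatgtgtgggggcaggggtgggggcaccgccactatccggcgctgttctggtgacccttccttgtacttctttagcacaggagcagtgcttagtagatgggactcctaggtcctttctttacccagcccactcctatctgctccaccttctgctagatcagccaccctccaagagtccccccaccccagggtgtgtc
The search of both strands found 1 GGGAA in the Itga5 window and none in that of Itgb7. Promoters of 29 members were in the RefSeq table, 35 in all, and 21 of these (60%) held GGGAA on either strand, against 18477 of 32851 promoters of all genes (56.2%). The longer TGGGAA, which contains GGGAA, was in 3 of the 35 member promoters (8.57%), against 21.6% of all promoters. AGGTCA, the element that retinoid receptors bind in pairs, was in 1 (2.86%, that of Zyx), against 14%. TGACG, part of the cAMP response element, was in 5 (14.3%), against 17.8%, and the full TGACGTCA, which contains it, in 0, against 1.55%. These matches describe letters in a short window and were not tested.

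Itgb1, Itgal and Itga6 were abundant chains with a small vector difference of 1 direction under the 5 treatments, whose size varied. Itgb1 had 361, 363, 364 and 369 CPM in IK6 libraries under DMSO, against 278, 287, 305 and 284 CPM in MIG libraries, a log2 difference of 0.34 ± 0.082. The difference was largest under carbacyclin, at 0.72 ± 0.088, with means of 333 CPM in IK6 and 202 CPM in MIG cells. It was nearly as large under NOE, with 375 and 234 CPM in that order. The interaction of Itgb1 with carbacyclin was lost under 14 alternatives, with adjusted p up to 0.109. Itgal, the alpha chain of the Icam1 receptor, had 218, 211, 213 and 194 CPM in IK6 libraries under DMSO, against 142, 140, 129 and 142 CPM in MIG libraries, a log2 difference of 0.60 ± 0.0536. That of Itgal was 0.19 ± 0.0575 under carbacyclin and 0.17 ± 0.0532 under NOE, with interactions of -0.40 and -0.43. IK6 and MIG libraries did not overlap under DMSO for either gene. Itga6, the laminin receptor chain, ran the other way with a mean of 192 CPM in IK6 and 269 CPM in MIG cells under DMSO, and its log2 difference lay between -0.49 and -0.21 over the 5 treatments. Itgb4, which pairs only with Itga6, was higher in IK6 cells by 0.50 ± 0.134 under DMSO and by up to 0.93 ± 0.139 under carbacyclin.

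Itga1, a collagen receptor chain, had 3.18, 4.5, 3.15 and 3.46 CPM in IK6 libraries under DMSO, against 1.44, 1.76, 1.88 and 1.42 CPM in MIG libraries, a log2 difference of 1.13 ± 0.185 (edgeR adjusted p = 1.11e-05). It was also called higher under bexarotene, carbacyclin and NOE. The bexarotene call was lost without MIG replicate 2 or 3 or IK6 replicate 3, with adjusted p up to 0.078, and the carbacyclin call without MIG replicate 2 or 3 or IK6 replicate 2 or 3, with adjusted p up to 0.223. Itgam, the alpha chain of the complement receptor of myeloid cells, was lower in IK6 cells, with 1.9, 1.7, 2 and 1.87 CPM, against 3.72, 3.24, 2.39 and 4.03 CPM in MIG cells, a log2 difference of -0.84 ± 0.12. Of its exon bases, 68.7% are shared in GENCODE M21 with Gm49368 on the same strand, so its counts are uncertain. The 12 myeloid markers summed to 8.67 to 9.73 CPM in IK6 libraries and 5.37 to 6.77 CPM in MIG libraries under DMSO. Among them Lyz2 averaged 2.88 CPM in IK6 and 0.621 CPM in MIG cells, and Prtn3 1.27 and 0.319 CPM. Cd68 was near level at 4.2 and 4.06 CPM, and Fcgr3 was lower in IK6 cells, at 0.703 against 0.785 CPM. The part of these markers in the Itgam difference was not tested.

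Among the adaptors and kinases, the IK6 cells had more of Fak, paxillin and the second talin gene, and a little less of Pyk2. Ptk2 had 26.7, 24.9, 26.5 and 24.1 CPM in IK6 libraries under DMSO, against 13.1, 12.8, 13.9 and 14.4 CPM in MIG libraries, with no overlap. Its log2 difference was 0.92 ± 0.0659 under DMSO and lay between 0.83 and 1.25 over the 5 treatments. Its paralogue Ptk2b was lower in IK6 cells under every treatment but NOE, where the log2 difference of -0.09 was not called, and by -0.32 ± 0.046 at most. Tln2 averaged 4.93 CPM in IK6 and 3.01 CPM in MIG cells under DMSO, a log2 difference of 0.70 ± 0.119, and Pxn 83.2 and 67.7 CPM in IK6 and MIG cells, a log2 difference of 0.30 ± 0.0694. The talin that blood cells use most, Tln1, averaged 399 CPM in IK6 cells and 434 CPM in MIG cells under DMSO and was not called there. Zyx, an actin regulator of mature adhesions, was called higher in IK6 cells under DMSO and ATRA, with group means of at most 0.45 CPM.

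Cd44, the hyaluronan receptor, had 71, 73.3, 67.5 and 68 CPM in IK6 libraries under DMSO, against 55.1, 54.4, 52.9 and 51.6 CPM in MIG libraries. The libraries did not overlap, and the log2 difference was 0.39 ± 0.0587 under DMSO and reached 0.81 ± 0.0608 under ATRA. Selplg, the P-selectin ligand, was lower in IK6 cells under DMSO, ATRA and carbacyclin, with means under DMSO of 307 CPM in IK6 cells and 431 CPM in MIG cells. Icam1, the counter-receptor of integrins with Itgb2, averaged 26.4 CPM in IK6 and 31.5 CPM in MIG cells under DMSO, and its log2 difference lay between -0.86 and -0.25 over the 5 treatments. The level of Itgb2 itself differed little, and it was called under carbacyclin alone, at -0.15 ± 0.0565 with edgeR adjusted p = 0.046. That call ended under 9 of the alternatives, among them leaving out replicate 2 or 4 of MIG or replicate 2 or 3 of IK6, with adjusted p up to 0.326.

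**Figure D3:**
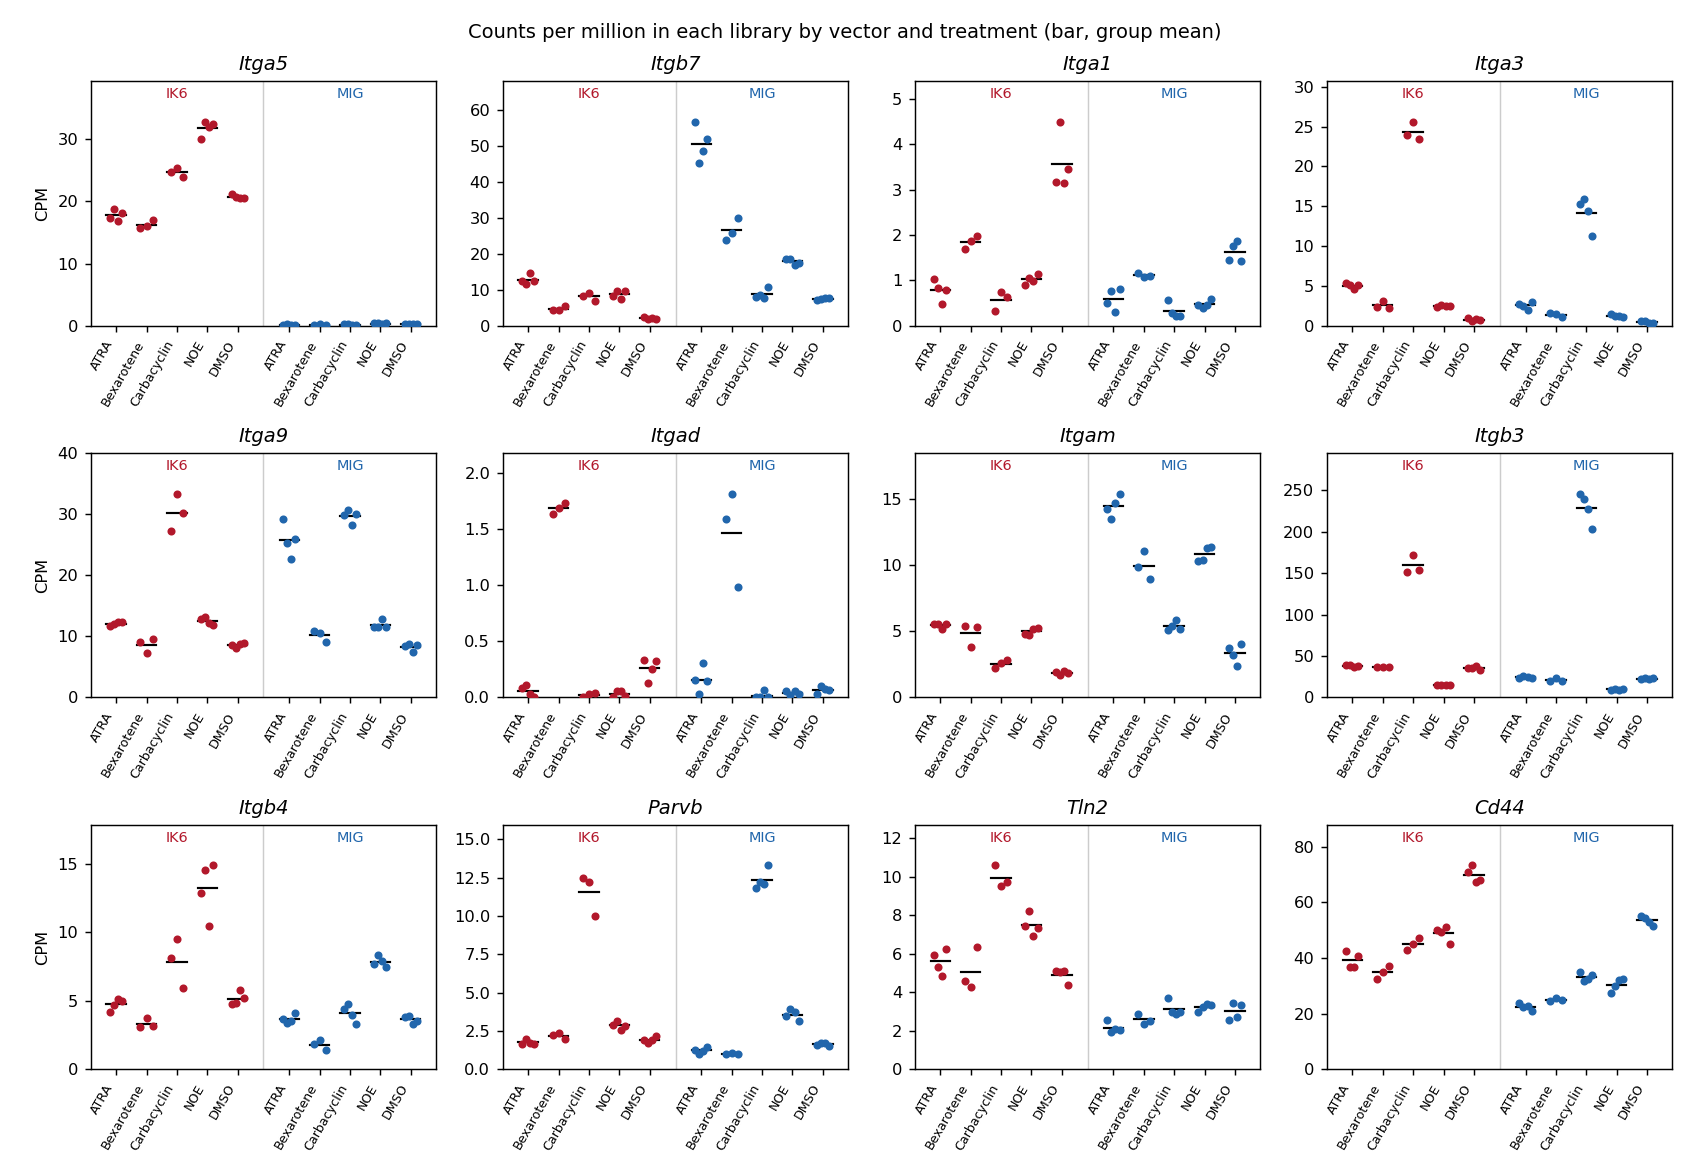
CPM in each library (points) and group means (bars) for 12 members, with IK6 groups in red and MIG groups in blue and the treatments in the same order within each. Itga5 was at 15.7 CPM or more in IK6 libraries and at 0.408 CPM or less in MIG libraries, and Itga3, Itgb3 and Parvb peaked under carbacyclin in both vectors.

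The compounds were compared with DMSO within each vector, so the 4 comparisons in IK6 cells share 1 set of DMSO libraries and those in MIG cells another, while the same compound in the 2 vectors shares none. ATRA, which activates the retinoic acid receptors, raised Itgb7, Itga3 and Itgam and lowered Itga1 and Cd44 in both vectors, and it raised Itga9 mostly in MIG cells. In IK6 cells 8 of the 33 tested members were higher and 8 lower, beside 22.7% and 20.9% of all tested genes. In MIG cells 11 were higher and 8 lower, beside 20.6% and 21.2%. Higher in both vectors were 8 members, a pattern held by 14.1% of all tested genes: Itga3, Itga9, Itgam, Itgb2, Itgb7, Fermt3, Ptk2 and Icam1. Lower in both were Itga1, Ptk2b, Lims1 and Cd44, a pattern held by 13.7%. No member was called in opposite directions in the 2 vectors under any of the 4 compounds. Opposite calls were not counted over all tested genes, so their absence is not read as a trait of these members.

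Itgb7 had the largest rise under ATRA in MIG cells, to 56.6, 45.3, 48.5 and 51.8 CPM, against 7.16 to 7.82 CPM under DMSO, a log2 difference of 2.75 ± 0.11 (edgeR adjusted p = 7.55e-20). In IK6 cells ATRA libraries held 11.7 to 14.5 CPM, against 1.77 to 2.29 CPM under DMSO, a log2 difference of 2.66 ± 0.122. The interaction of -0.09 ± 0.165 did not pass the test, and the levels of the vectors stayed apart. Itga3, the alpha chain of a laminin receptor, had 5.32, 5.08, 4.66 and 5.09 CPM in IK6 libraries under ATRA, against 0.937, 0.61, 0.874 and 0.676 CPM under DMSO, a log2 difference of 2.69 ± 0.152. In MIG cells it had 2.77, 2.51, 1.97 and 3.03 CPM under ATRA, against 0.61, 0.593, 0.392 and 0.339 CPM under DMSO, a log2 difference of 2.39 ± 0.181. Treated and DMSO libraries of Itga3 did not overlap in either vector.

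Itga9, whose receptor with Itgb1 binds tenascin and Vcam1, was raised by ATRA more in MIG cells than in IK6 cells. It had 11.7, 12, 12.3 and 12.4 CPM in IK6 libraries under ATRA, against 8.64, 8.09, 8.79 and 8.93 CPM under DMSO, a log2 difference of 0.49 ± 0.0796. MIG libraries had 29.3, 25.3, 22.7 and 25.9 CPM under ATRA, against 8.38, 8.77, 7.52 and 8.53 CPM under DMSO, a log2 difference of 1.64 ± 0.0805. The interaction, the difference between these 2 responses, was -1.15 ± 0.113 (edgeR adjusted p = 9.62e-09). Under DMSO the vectors overlapped for Itga9, and under ATRA they were apart by -1.10 ± 0.078 on the log2 scale.

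Itgam was raised by ATRA to 5.58, 5.57, 5.2 and 5.52 CPM in IK6 libraries, against 1.7 to 2 CPM under DMSO, and to 14.2, 13.5, 14.7 and 15.4 CPM in MIG libraries, against 2.39 to 4.03 CPM. The log2 differences were 1.54 ± 0.114 in IK6 and 2.10 ± 0.108 in MIG cells, with an interaction of -0.56 ± 0.157. The myeloid markers summed to 16.5 to 18.4 CPM under ATRA in IK6 cells, against 8.67 to 9.73 CPM under DMSO, and to 8.13 to 10.6 CPM in MIG cells, against 5.37 to 6.77 CPM. Their part in the Itgam result was not tested, and in bulk RNA more cells of a type and more RNA per cell cannot be told apart.

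Of the members lowered by ATRA in both vectors, Itga1 and Cd44 fell most. Itga1 had 1.02, 0.836, 0.478 and 0.784 CPM in IK6 libraries under ATRA, against 3.15 to 4.5 CPM under DMSO, a log2 difference of -2.17 ± 0.198, and 0.503, 0.769, 0.307 and 0.802 CPM in MIG libraries, against 1.42 to 1.88 CPM, a log2 difference of -1.36 ± 0.232. Cd44 fell to 42.7, 36.7, 36.7 and 40.6 CPM in IK6 cells, against 67.5 to 73.3 CPM under DMSO, a log2 difference of -0.84 ± 0.0592. In MIG cells it fell to 23.7, 22.5, 22.7 and 20.8 CPM, against 51.6 to 55.1 CPM, a log2 difference of -1.26 ± 0.061. Both genes were lowered without overlap of libraries. The fall of Cd44 was smaller in IK6 cells, with an interaction of 0.42 ± 0.0843 (edgeR adjusted p = 8.83e-04).

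Bexarotene activates the retinoid X receptors, the obligate partners of the retinoic acid receptors. It raised Itgad, Itgb7, Itga3 and Itgam and lowered Itgb4, Itgal, Itgb1 and Cd44 in both vectors. In IK6 cells 6 tested members were higher and 11 lower, beside 22.3% and 19.4% of all tested genes. In MIG cells 8 were higher and 10 lower, beside 19.9% and 18.2%. Higher in both vectors were Itga3, Itga10, Itgad, Itgam, Itgb7 and Ptk2, a pattern held by 14.7% of all tested genes. In GENCODE M21, 33.5% of the exon bases of Itga10 are shared with Gm42957. Lower in both were 9 members, a pattern held by 12.5%: Itga1, Itga6, Itgal, Itgb1, Itgb4, Vcl, Ptk2b, Cd44 and Selplg. Abundant chains were among those lowered, with Itgal at 138 CPM in IK6 cells, against 209 CPM under DMSO, and at 93.1 CPM in MIG cells, against 138 CPM under DMSO. Itgb1 stood at 268 CPM under bexarotene in IK6 cells, against 364 CPM under DMSO, and at 208 CPM in MIG cells, against 289 CPM. Of these calls, those of Itga1 in MIG cells and of Selplg in IK6 cells were near the threshold, each lost under 8 alternatives. Both ended with no filter on low counts and with the replicate block, and that of Itga1 also without the 3 libraries with a high ribosomal share. The first was lost without MIG DMSO replicate 2 or 3 or any 1 MIG bexarotene library, with adjusted p up to 0.135. The second was lost without IK6 DMSO replicate 1, 2 or 3 or any 1 IK6 bexarotene library, with adjusted p up to 0.138.

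Itgad, the alpha chain of a macrophage integrin that pairs with Itgb2, reached 1 CPM on average under bexarotene alone. It had 1.64, 1.69 and 1.74 CPM in IK6 libraries under bexarotene, against 0.338, 0.128, 0.25 and 0.327 CPM under DMSO, a log2 difference of 2.64 ± 0.33 (edgeR adjusted p = 7.12e-08). In MIG libraries it had 1.59, 1.82 and 0.982 CPM, against 0.0321, 0.106, 0.0784 and 0.0677 CPM under DMSO, a log2 difference of 4.25 ± 0.43. Every bexarotene library lay above every library of the other treatments. In IK6 cells it was called lower under ATRA, carbacyclin and NOE, with means of 0.0568, 0.0222 and 0.0342 CPM in that order, against 0.261 CPM under DMSO. Those levels are a few counts per library, and 1 library moves the log2 differences, which were -1.84 under ATRA, or -2.57 without IK6 ATRA replicate 2, and -3.52 under carbacyclin, or -2.91 without IK6 carbacyclin replicate 1. The myeloid markers summed to 9.4 to 12.5 CPM in IK6 cells under bexarotene, against 8.67 to 9.73 CPM under DMSO, and to 6.09 to 8.27 CPM in MIG cells, against 5.37 to 6.77 CPM. In GENCODE M21, 19.7% of the exon bases of Itgad lie in exons of 4 other genes.

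Itgb4 fell under bexarotene to 3.06, 3.77 and 3.19 CPM in IK6 libraries, against 4.76 to 5.79 CPM under DMSO, and to 1.88, 2.16 and 1.39 CPM in MIG libraries, against 3.29 to 3.86 CPM. The log2 differences were -0.65 ± 0.149 in IK6 and -1 ± 0.161 in MIG cells. Under NOE it moved the other way, to 12.9, 14.6, 10.5 and 14.9 CPM in IK6 and 7.71, 8.35, 7.89 and 7.48 CPM in MIG libraries, log2 differences of 1.37 ± 0.125 and 1.11 ± 0.132. Itgb7 stood at 4.23, 4.37 and 5.5 CPM in IK6 and at 23.8, 25.8 and 29.9 CPM in MIG libraries under bexarotene, log2 differences from DMSO of 1.23 ± 0.137 and 1.82 ± 0.114. Itgam had 5.37, 3.82 and 5.34 CPM in IK6 and 9.82, 11.1 and 8.98 CPM in MIG libraries, log2 differences of 1.39 ± 0.123 and 1.57 ± 0.113.

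Since ATRA and bexarotene are both retinoids given at 1 µM, they were set against each other directly, in 1 pair per vector. Under bexarotene against ATRA 3 tested members were higher and 13 lower in IK6 cells, beside 11.7% and 10.2% of all tested genes, and 3 higher and 14 lower in MIG cells, beside 12.6% and 11%. Itgad was higher under bexarotene by 4.48 ± 0.405 in IK6 cells and 3.37 ± 0.398 in MIG cells on the log2 scale; the IK6 value was 5.21 without replicate 2 of IK6 ATRA. Itga3 was lower under bexarotene than under ATRA by -1.03 ± 0.147 in IK6 and -0.96 ± 0.166 in MIG cells, and Itgb7 by -1.43 ± 0.125 and -0.93 ± 0.111. Itga9 was lower by -0.47 ± 0.0875 in IK6 and -1.34 ± 0.0868 in MIG cells. The retinoids thus moved Itga3 and Itgb7 in the same direction from DMSO but to different levels, and Itgad stood apart under bexarotene.

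Carbacyclin, a stable prostacyclin analogue, raised Itga3, Itgb3, Parvb and Itga9 and lowered Itga1 and Cd44 in both vectors. In IK6 cells 13 tested members were higher and 9 lower, beside 20.8% and 18.8% of all tested genes. In MIG cells 13 were higher and 6 lower, beside 24.7% and 23.3%. Higher in both vectors were 9 members, a pattern held by 15.6% of all tested genes: Itga3, Itga9, Itgam, Itgb3, Itgb5, Pxn, Parvb, Parvg and Selplg. Lower in both were Itga1, Itga6, Vcl, Lims1 and Cd44, a pattern held by 14.4%. The calls of Parvg and Selplg in IK6 cells were each lost with 1 library left out, without any IK6 DMSO library or IK6 carbacyclin replicate 1 or 2 for Parvg and without IK6 DMSO replicate 1, 3 or 4 or IK6 carbacyclin replicate 1 or 2 for Selplg. Adjusted p reached 0.231 and 0.198 there. The call of Itgam in IK6 cells ended at edgeR adjusted p = 0.0518 without replicate 3 of IK6 carbacyclin. The myeloid markers summed to 17.1 to 20.1 CPM under carbacyclin in IK6 cells, against 8.67 to 9.73 CPM under DMSO, and to 11.6 to 16.7 CPM in MIG cells, against 5.37 to 6.77 CPM.

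Itga3 rose under carbacyclin to 23.9, 25.6 and 23.4 CPM in IK6 libraries, against 0.61 to 0.937 CPM under DMSO, and to 15.3, 15.9, 14.4 and 11.2 CPM in MIG libraries, against 0.339 to 0.61 CPM. The log2 differences were 4.96 ± 0.153 and 4.83 ± 0.162 in IK6 and MIG cells, with edgeR adjusted p of at most 5.78e-22. Itgb3 (ENSMUSG00000020689), the beta chain of the vitronectin receptor and, with Itga2b, of the platelet fibrinogen receptor, rose to 152, 172 and 154 CPM in IK6 libraries, against 35.5, 35.4, 37.7 and 33.4 CPM under DMSO. In MIG libraries it rose to 246, 240, 227 and 203 CPM, against 22.2, 23.1, 22.3 and 23.9 CPM under DMSO. This turned the order of the vectors round: carbacyclin was the 1 treatment under which IK6 cells had less Itgb3 than MIG cells.

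The log2 differences of Itgb3 from DMSO were 2.17 ± 0.064 in IK6 and 3.32 ± 0.0644 in MIG cells, with an interaction of -1.16 ± 0.0878 (edgeR adjusted p = 3.22e-11). IK6 minus MIG was -0.52 ± 0.0634 under carbacyclin and between 0.62 and 0.78 under the other 4 treatments. Per kilobase Itgb3 thereby passed Itgb2 and became the second beta chain, at 27 ± 1.92 CPM per kb in IK6 cells (SD, n = 3) and 38.8 ± 3.19 CPM per kb in MIG cells (SD, n = 4). NOE lowered Itgb3 to 14.8, 14.8, 14.8 and 14.9 CPM in IK6 and 9.16, 9.69, 9.22 and 10.5 CPM in MIG libraries, log2 differences of -1.26 ± 0.0615 and -1.25 ± 0.0635. Of its alpha partners, Itgav averaged 49.6 CPM under carbacyclin in IK6 cells, against 52.6 CPM under DMSO, and 44.3 CPM in MIG cells, against 46 CPM, and was not called in either. Itga2b averaged 1.05 CPM under carbacyclin in IK6 cells, against 2.03 CPM under DMSO, and fell by 0.95 on the log2 scale. In MIG cells Itga2b averaged 1.06 CPM, against 1.44 CPM under DMSO, and was not called.

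Of the 13 erythroid and megakaryocyte markers, 3 averaged at least 1 CPM in every group: Gp1ba, Hbb-b1 and Hbb-b2. Their list summed to 56.3 to 65.7 CPM under carbacyclin in IK6 cells, against 48.9 to 54.3 CPM under DMSO, and to 75.8 to 263 CPM in MIG cells, against 54.6 to 120 CPM. Under NOE, where Itgb3 was lowest, the sums were 14.9 to 18.4 CPM in IK6 and 16.1 to 18.6 CPM in MIG cells. The ATRA sums were 84.3 to 95.4 CPM in IK6 and 115 to 159 CPM in MIG cells. Itgb3 was not called under ATRA in either vector. Hbb-b2 was the largest part, with means in MIG cells of 62.6 CPM under DMSO, 112 CPM under carbacyclin and 11.1 CPM under NOE. Gp1ba averaged 2.67, 2.48 and 2.35 CPM in IK6 cells under DMSO, carbacyclin and NOE, and 2.45, 3.04 and 3.03 CPM in MIG cells. The platelet genes Ppbp and Gp1bb were at 0 in every group. The part of these markers in the Itgb3 results was not tested.

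Parvb, the parvin that links Ilk to actin in many tissues, was raised by carbacyclin to 12.5, 12.2 and 9.98 CPM in IK6 libraries, against 1.9, 1.7, 1.9 and 2.16 CPM under DMSO, a log2 difference of 2.59 ± 0.103. In MIG libraries it had 11.8, 12.2, 12.1 and 13.3 CPM, against 1.57, 1.74, 1.69 and 1.52 CPM, a log2 difference of 2.92 ± 0.102. Parvg, the parvin of blood cells, had means under carbacyclin of 394 CPM in IK6 cells and 486 CPM in MIG cells. Itga9 rose to 27.3, 33.4 and 30.2 CPM in IK6 and to 29.9, 30.7, 28.2 and 30.1 CPM in MIG libraries, log2 differences of 1.81 ± 0.0836 and 1.84 ± 0.0802. Unlike under ATRA, the 2 vectors overlapped in Itga9 under carbacyclin.

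Itgb7 and Tln2 were raised by carbacyclin in IK6 cells and not called in MIG cells, and their interactions passed the test. Itgb7 rose in IK6 cells by 2.02 ± 0.131 on the log2 scale and differed by 0.22 in MIG cells, an interaction of 1.80 ± 0.172 (edgeR adjusted p = 3.52e-09). Tln2 had 10.6, 9.54 and 9.72 CPM in IK6 libraries under carbacyclin, against 5.13, 5.07, 5.12 and 4.38 CPM under DMSO, a log2 difference of 1.02 ± 0.118. MIG libraries had 3.72, 2.97, 2.87 and 2.99 CPM, against 2.54, 3.45, 2.7 and 3.35 CPM, a log2 difference of 0.03 with overlapping libraries. The interaction of Tln2 was 0.99 ± 0.171 (edgeR adjusted p = 1.04e-04). Icam1 showed the converse, at 27.8 CPM under carbacyclin in IK6 cells, against 26.4 CPM under DMSO, and at 50.5 CPM in MIG cells, against 31.5 CPM, with an interaction of -0.61.

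**Figure D4:**
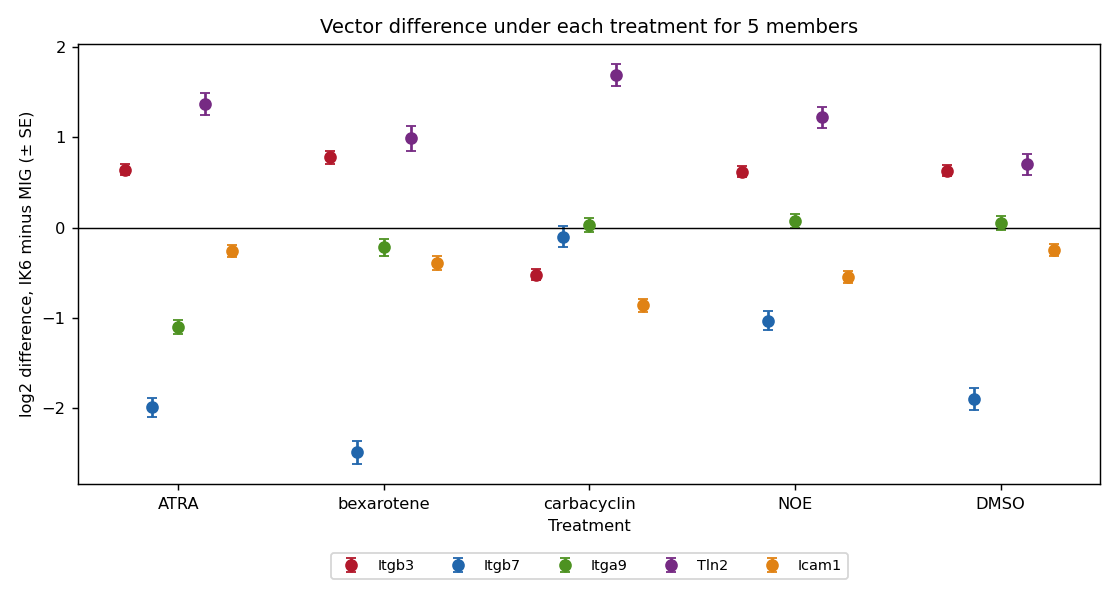
Log2 difference of IK6 minus MIG (points) with its SE (bars) under each treatment for Itgb3, Itgb7, Itga9, Tln2 and Icam1. Itgb3 crosses 0 under carbacyclin alone, where it is -0.52, Itgb7 is near 0 under carbacyclin and as low as -2.49 under bexarotene, and Itga9 is apart from 0 under ATRA.

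NOE is a lipid amide related to the endocannabinoids that activates the lipid sensor Ppara. It raised Itgal, Itgb7, Itgb4, Itgb5 and Itgam and lowered Itgb3, Itga1 and Cd44 in both vectors. In IK6 cells 17 tested members were higher and 8 lower, beside 22.8% and 18.2% of all tested genes. In MIG cells 14 were higher and 8 lower, beside 22.6% and 22.3%. Higher in both vectors were 12 members, a pattern held by 15.4% of all tested genes: Itga3, Itga9, Itgal, Itgam, Itgb2, Itgb4, Itgb5, Itgb7, Fermt3, Pxn, Parvb and Icam1. Lower in both were Itga1, Itgb3, Tln1, Vcl, Ptk2b, Lims1 and Cd44, a pattern held by 14.4%. Among the calls of these lists, those of Itgb2 and Fermt3 in IK6 cells were lost without replicate 1 of IK6 NOE, and that of Tln1 in IK6 cells without replicate 1 of IK6 DMSO. In MIG cells the call of Pxn was lost without NOE replicate 1 or 2, and that of Tln1 without MIG DMSO replicate 1, 2 or 4 or NOE replicate 1 or 2. The myeloid markers summed under NOE to 22.1 to 24.1 CPM in IK6 cells and 15.1 to 16.5 CPM in MIG cells, again above the DMSO sums, and their part in the Itgam calls under carbacyclin and NOE was not tested.

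Itgal reached its highest level under NOE, at 338, 360, 344 and 338 CPM in IK6 libraries, against 194 to 218 CPM under DMSO, and at 303, 313, 313 and 302 CPM in MIG libraries, against 129 to 142 CPM. The log2 differences were 0.72 ± 0.0535 and 1.16 ± 0.054 in IK6 and MIG cells, an interaction of -0.43. Its partner Itgb2 rose by 0.18 ± 0.0519 and 0.17 ± 0.052 in IK6 and MIG cells, and the ligand Icam1 by 0.39 ± 0.0648 and 0.68 ± 0.0646. All 3 parts of this adhesion pair were thus called higher in both vectors, with a small rise of Itgb2. Its call in IK6 cells ended at edgeR adjusted p = 0.057 without replicate 1 of IK6 NOE. Itgb5, a beta chain that pairs with Itgav, averaged 1.85 CPM under NOE in IK6 cells, against 0.562 CPM under DMSO, and 1.6 CPM in MIG cells, against 0.5 CPM, log2 differences of 1.71 ± 0.195 and 1.71 ± 0.208. Itgb7 stood at 8.2, 9.5, 7.46 and 9.68 CPM in IK6 and 18.6, 18.4, 16.9 and 17.4 CPM in MIG libraries under NOE, log2 differences of 2.12 ± 0.123 and 1.25 ± 0.108 from DMSO, with an interaction of 0.87 ± 0.163.

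Some members moved the same way under every compound. Itga3 and Itgam were called higher, and Itga1 and Cd44 lower, with each of the 4 compounds in each vector. The 4 comparisons within a vector share their DMSO libraries, so these are not 4 independent results. The share of all tested genes with such a pattern was not counted, so it is not read as particular to these members. As given above, the calls of Itga1 under bexarotene in MIG cells and of Itgam under carbacyclin in IK6 cells were each lost with 1 library left out. The Itga3 level under NOE was 2.34 to 2.61 CPM in IK6 and 1.12 to 1.47 CPM in MIG libraries, and Cd44 had 44.9 to 51.3 CPM in IK6 and 27.6 to 32.3 CPM in MIG libraries under NOE. Itga1 was lowest under carbacyclin, with 0.322, 0.736 and 0.631 CPM in IK6 and 0.576, 0.276, 0.216 and 0.223 CPM in MIG libraries. Ptk2b was lower in both vectors under ATRA, bexarotene and NOE, by -0.65 ± 0.0426 at most, in MIG cells under NOE. Vcl, which strengthens the link of talin to actin, was lower under all 4 compounds in IK6 cells, by between -0.79 and -0.22, and under all but ATRA in MIG cells. In GENCODE M21, 25.5% of the exon bases of Vcl lie in exons of Ap3m1 on the other strand.

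The difference between the responses of the 2 vectors to a compound was called for 6 tested members under ATRA, beside 9.78% of all tested genes, 3 under bexarotene, beside 5.69%, 7 under carbacyclin, beside 8.83%, and 7 under NOE, beside 8.82%. Of these 23 interactions, 14 held under each alternative processing and with any 1 library left out. The 3 under bexarotene were Parvb at 0.85 ± 0.176, which was among the 14, and Itgb7 at -0.59 and Vcl at -0.26, which were not. Parvb had 2.23, 2.35 and 1.96 CPM in IK6 libraries and 0.975, 1.06 and 1.01 CPM in MIG libraries under bexarotene.

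A wider list of 104 genes of the same pathway, made up of integrin ligands, other adhesion receptors, integrin regulators and further focal adhesion proteins, held 84 tested genes. Under DMSO 17 of these were higher and 19 lower in IK6 cells, beside 13.3% and 12.7% of all tested genes. Dock1, a guanine exchange factor that acts with Bcar1 downstream of Fak, averaged 3.92 ± 0.35 CPM in IK6 and 0.025 ± 0.0323 CPM in MIG cells, while Bcar1, the adaptor p130Cas, averaged 0.334 ± 0.0737 and 2.76 ± 0.439 CPM in IK6 and MIG cells (SD, n = 4 each). The kinase Pak1 was higher in IK6 cells by 1.58 ± 0.0898 on the log2 scale, and the endocytic adaptor Dab2 by 1.39 ± 0.266. The kinase Src was lower, with 1.92 ± 0.194 CPM in IK6 cells and 6.84 ± 0.256 CPM in MIG cells, as was Rasgrp1, an activator of Ras proteins, by -1.60 ± 0.0759.

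Under ATRA the wider list had 26 of 84 genes higher and 15 lower in IK6 cells, beside 22.7% and 20.9% of all tested genes, and 30 higher and 13 lower in MIG cells, beside 20.6% and 21.2%. S1pr1, the sphingosine receptor that guides the exit of lymphocytes from tissues, averaged 116 ± 3.4 CPM under ATRA in IK6 cells, against 8.17 ± 0.65 CPM under DMSO, and 173 ± 6.8 CPM in MIG cells, against 5.68 ± 0.194 CPM. The laminin chain Lama5, a ligand of Itga3 and Itga6, averaged 8.82 ± 0.677 CPM under ATRA in IK6 cells, against 1.96 ± 0.155 CPM under DMSO, and 35.8 ± 4.47 CPM in MIG cells, against 2.73 ± 0.363 CPM. Spp1, osteopontin, which binds Itga4, Itga9 and Itgav receptors, fell to 7.23 ± 0.819 CPM in IK6 cells, against 43.5 ± 1.19 CPM under DMSO, and to 9.75 ± 0.888 CPM in MIG cells, against 39.4 ± 2.14 CPM. Fgr, a Src family kinase, fell in both vectors, by -1.49 ± 0.127 in IK6 and -0.97 ± 0.126 in MIG cells on the log2 scale. Fibronectin (Fn1) in MIG cells, at 2.21 ± 0.604 CPM under ATRA, against 0.251 ± 0.102 CPM under DMSO, and the collagen chain Col4a2 in IK6 cells, at 2.77 ± 0.424 CPM, against 0.144 ± 0.0496 CPM, were further rises. Also among the largest changes were the rises of Cd34 in IK6 cells and of Src in MIG cells, and the falls of Cxcr4, the receptor of the marrow chemokine Cxcl12, and Kank2 in IK6 cells and of Cdh1 and Sdc1 in MIG cells.

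Bexarotene gave 26 genes of the wider list higher and 16 lower in IK6 cells, beside 22.3% and 19.4% of all tested genes, and 24 higher and 18 lower in MIG cells, beside 19.9% and 18.2%. S1pr1 averaged 57.1 ± 1.49 CPM under bexarotene in IK6 cells and 80.2 ± 3.58 CPM in MIG cells (SD, n = 3 each), below its ATRA levels and above those under DMSO. Tgfb1i1, a paralogue of paxillin, rose in both vectors, by 1.61 ± 0.248 in IK6 and 1.42 ± 0.278 in MIG cells on the log2 scale. Src rose in IK6 cells by 1.39 ± 0.137. E-cadherin (Cdh1), the ligand of Itgae with Itgb7, fell by -1.49 ± 0.167 in IK6 and -2.50 ± 0.191 in MIG cells. Spp1 and Fgr fell in both vectors as well, Kank2 in IK6 cells by -1.51 ± 0.146 and Bcar1 in MIG cells by -1.45 ± 0.238. Under carbacyclin 19 genes of the wider list were higher and 19 lower in IK6 cells, beside 20.8% and 18.8% of all tested genes, and 26 higher and 22 lower in MIG cells, beside 24.7% and 23.3%. NOE gave 32 higher and 15 lower in IK6 cells, beside 22.8% and 18.2%, and 27 higher and 21 lower in MIG cells, beside 22.6% and 22.3%.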

How the data were processed

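RNA of 37 libraries was sequenced after TruSeq RNA v2 preparation, per the labels' protocols. The authors deposited whole-number read counts per gene; the submitters' processing notes name BWA 0.5.9, HTSeq and mm9, with the use of strand not given in the sources used here. Counts for 35290 genes were joined and genes were named as in the files. Genes with low counts were removed with filterByExpr (minimum count 10, minimum total 15), which left 15699 genes holding 99.97% to 99.99% of counts. Total counts per library were 16.5 to 80.4 M, median 35.1 M. Libraries were scaled by TMM, and edgeR 4.0.16 (R 4.3.3, limma 3.58.1) fitted 1 robust quasi-likelihood model over the 10 groups, with 27 residual degrees of freedom and no covariate. In all, 19 comparisons were tested, each two-sided and adjusted by Benjamini-Hochberg over all tested genes with a threshold of 0.05. CPM used TMM-scaled library sizes; SE is the log2 difference divided by the square root of F. CPM per kb used GENCODE M21 exon lengths (GRCm38), a later build than the files'. Promoters were RefSeq sequences in GRCm38.p6. The model was also run on simulated counts, and that run is not used here as support for any result.

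The members and the gene lists were chosen with earlier results of these data known. Values per library are given for Itga1, Itga3, Itga5, Itga9, Itgad, Itgam, Itgb4, Itgb7 and Cd44 by a rule on the size of change; Itgb3, Itgb1, Itgal, Itga8, Parvb, Ptk2, Tln2 and other members were added after their values were seen. In the wider list, up to 4 genes with the largest called change in each direction were named, where a group averaged 1 CPM or more and the libraries of the groups did not overlap; some of these are not reported here. Interactions of at least 1 on the log2 scale were named by rule and others after their values were seen. Alternatives were RLE scaling, no filter, DESeq2 1.42.0, a replicate block, the compared groups alone, leaving out the 3 libraries with a high ribosomal share, and leaving out each library in turn. Counts of replicates differed by more than sampling noise in every pair, with chi-square per degree of freedom of 2.32 to 242 over 51 pairs.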

Additional observations from a re-analysis of the deposited data

Results flagged for a closer look

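In 13 of 197 sets of 4 libraries with a mean of at least 1 CPM, 1 library stood apart from the other 3 by a Dixon test, where chance gives about 1 in 20. Itga10 had 2.31 CPM in MIG DMSO replicate 3, against 4.2 to 4.51 CPM in the others, and 4.9 CPM in IK6 ATRA replicate 1, against 6.52 to 6.66 CPM. Itga4 had 244 CPM in MIG DMSO replicate 3, against 320 to 328 CPM, and 290 CPM in IK6 DMSO replicate 3, against 293 CPM. Itgal had 129 CPM in MIG DMSO replicate 3, against 140 to 142 CPM. Those 3 values of MIG DMSO replicate 3 come from a library with 15.09% of counts in ribosomal protein genes, and the part of that share in them was not tested. Itga9 had 12.9 CPM in MIG NOE replicate 3, Itgam 5.2 CPM in IK6 ATRA replicate 3, and Tln2 3.72 CPM in MIG carbacyclin replicate 1 and 4.38 CPM in IK6 DMSO replicate 4. Fermt3 had 251 CPM and Selplg 360 CPM in MIG ATRA replicate 2, and Vcl 40.5 CPM and Pxn 109 CPM in IK6 NOE replicate 3.

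The response to a compound differed between IK6 and MIG cells for 23 member and compound pairs, as tested by the interaction, on the log2 scale and positive where the response was more upward in IK6 cells. Under ATRA these were Itga9 at -1.15, Itgad at -2.72, Itgam at -0.56, Vcl at -0.38, Tln2 at 0.67 and Cd44 at 0.42. The Itgad value was -3.45 without IK6 ATRA replicate 2. Under bexarotene they were Itgb7 at -0.59, Vcl at -0.26 and Parvb at 0.85. Under carbacyclin they were Itgb3 at -1.16, Itgal at -0.40, Icam1 at -0.61, Itgb7 at 1.80, Tln2 at 0.99, Itgb1 at 0.39 and Ptk2 at 0.33. Under NOE they were Itgal at -0.43, Parvb at -0.55, Icam1 at -0.29, Itgb7 at 0.87, Tln2 at 0.52, Pxn at 0.38 and Cd44 at 0.30. The calls of Itgad under ATRA, Itgb7 and Vcl under bexarotene, Itgb1 and Ptk2 under carbacyclin, and Tln2, Pxn, Cd44 and Icam1 under NOE were each lost under at least 1 alternative. The number of alternatives that ended such a call ran from 4, for Pxn, to 14. It was 14 for Itgb7 under bexarotene, Itgb1 under carbacyclin and Tln2 under NOE, and 11 for Vcl under bexarotene.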

How the results depend on the processing

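None of the 316 member calls changed direction under any alternative run, and 57 lost significance under at least 1. DESeq2 ended 4 calls, RLE scaling 5, no filter on low counts 27, the replicate block 10, leaving out the 3 libraries with a high ribosomal share 5, and fitting the compared groups alone 25 of the 311 it could test. The count of members with a bexarotene interaction was 3, but 1 with no filter, 1 with the replicate block and 1 to 3 with 1 library left out; it was 1 without MIG DMSO replicate 2, MIG bexarotene replicate 2, IK6 DMSO replicate 1 or 3, or IK6 bexarotene replicate 1 or 2. The count with an NOE interaction was 7, but 4 with no filter and 4 to 9 with 1 library left out, 4 without IK6 NOE replicate 1. Over all tested genes, the vector comparison called 3298 under bexarotene, or 4984 without the 3 libraries, and 5048 under carbacyclin, or 2376 from the compared groups alone. From the compared groups alone, carbacyclin in MIG cells called 4521 genes, against 7536, bexarotene against ATRA in IK6 cells 5475, against 3441, and the interactions 2581, against 1536, for ATRA and 889, against 1386, for carbacyclin. The carbacyclin interaction called 2253 without the 3 libraries. Libraries with the same replicate number had a median correlation of deviations of -0.0176, against 0.00826 for other numbers, and 7 of 37 correlated best with their own number, so the numbers were not taken as pairs. Members near or under 1 CPM, such as Itgad and Zyx, are limited by depth.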
